A study of Rattus norvegicus with 2 samples.

Results

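Voltage-gated potassium channels open when the membrane depolarises and let potassium leave the cell, which shortens action potentials and limits repetitive firing. Kv1 channels are low-threshold channels of axons and, in some neurons, dendrites, built from pore-forming α subunits that pair with cytoplasmic β subunits. Kv2 channels are delayed rectifiers of the soma and proximal dendrites, Kv3 channels allow fast spiking and sit largely on interneurons and nerve terminals, and Kv4 channels carry the A-type current of hippocampal pyramidal cell dendrites. The 9 genes described here are Kcna1, Kcna4 and Kcna5 of the Kv1 family, the β subunit gene Kcnab2, Kcnb2 of the Kv2 family, Kcnc1 and Kcnc2 of the Kv3 family, and Kcnd2 and Kcnd3 of the Kv4 family. They were taken by name: every probe set whose single gene symbol in the platform annotation was one of these genes was used, which gave 18 of the 8740 non-control probe sets, and 9 of the 4736 genes with a probe set of their own.

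RNA of synaptosomes, resealed nerve terminals that are prepared from homogenised brain and often keep a piece of the postsynaptic side, was set against RNA of the total hippocampus. The synaptosomes were hippocampal. Both came from Sprague Dawley rats at postnatal day 70, the labels name no treatment, and they leave the number of animals behind either sample unstated. Each group had 1 oligonucleotide array, hybridised with biotin-labelled cRNA made from amplified cDNA. The number of arrays therefore limits the precision, no test between the groups was possible, and every value below is a single measurement. The comparison was made to find mRNAs enriched at synapses, and the study's title names the mRNA of Kv1.1, the product of Kcna1.

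The deposited values are linear intensities that can lie below 0. A signal of 846, the median of all non-control values on both arrays, served as a floor. Lower values were raised to it ahead of the log2 step. Log2 ratios are synaptosome minus total hippocampus, less their median over the probe sets past a filter on mean level, -0.17, so a centred fold of a gene higher in synaptosomes is 1.13 times the quotient of its signals. Where 1 array lay under the floor the fold is a bound, written "at least", and it holds only with this floor and centring. Negative values show how large a signal without target can be. Their size, taken as the 95th percentile of their absolute values and called the size of negative values below, was 2912.6 for synaptosomes and 5280.25 for the hippocampus. The only error that the data give is how far probe sets of one gene disagree, with a standard deviation (SD) of 0.90 on the log2 scale over 658 genes. It leaves out the spread between animals and preparations.

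Of the 18 probe sets, 14 had the higher deposited signal in synaptosomes and 4 the lower. Among all 7006 probe sets with 1 gene symbol, 53.5% had the higher signal in synaptosomes. Of the 18, 6 exceeded the floor on each array, 5 on the synaptosome array alone, 2 on the hippocampus array alone, and 5 on neither. The signals stood clear of the size of negative values on both arrays for only 2 of them, 1 probe set of Kcnab2 and 1 of Kcnd2, against 13.3% of all probe sets with 1 gene symbol. Both Kcna1 probe sets passed that size in synaptosomes, and neither did in the hippocampus.

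**Figure D1:**
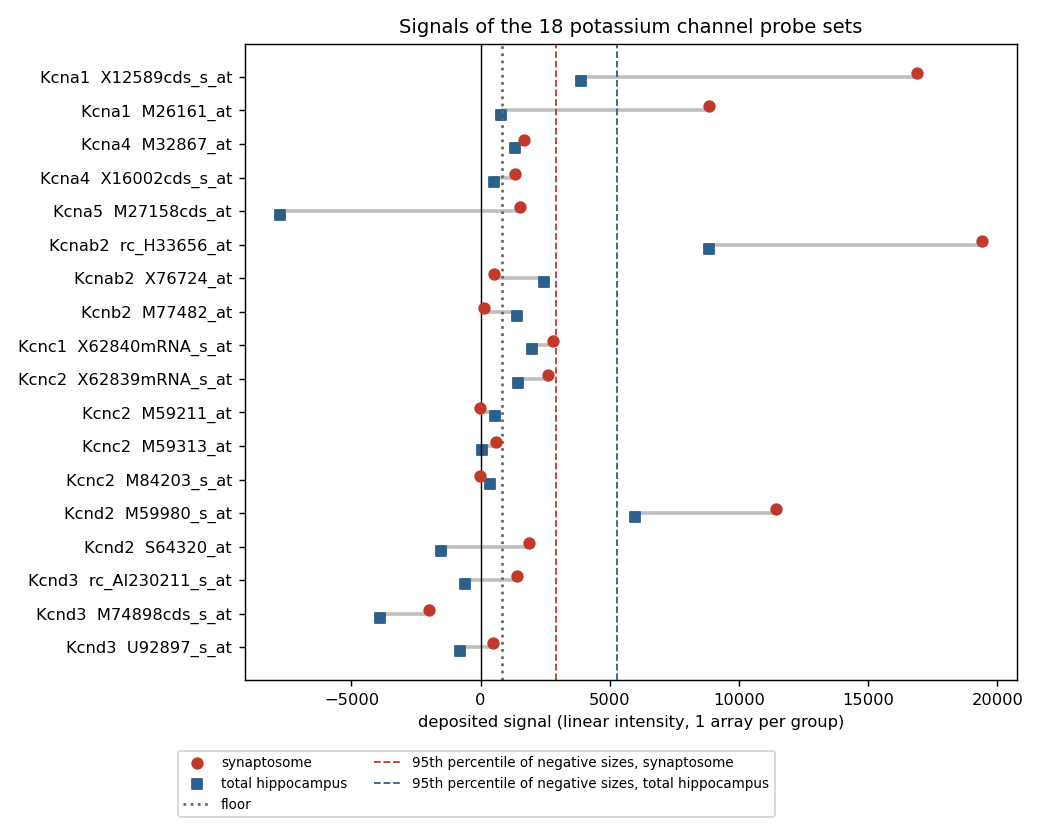
Deposited signal (linear intensity) of each of the 18 probe sets on the synaptosome array (red circles) and the total hippocampus array (blue squares), with grey lines joining the 2 values of a probe set, a dotted line at the floor of 846, and dashed lines at the size of negative values, 2912.6 for synaptosomes and 5280.25 for the hippocampus. Both Kcna1 probe sets, 1 of Kcnab2 and 1 of Kcnd2 lie to the right of the synaptosome line with their red circles, and the other 14 lie to its left with both symbols.

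All 9 genes had at least 1 probe set past the filter on mean level, and the brightest of these stands for the gene in counts. With them, 5 of 9 genes were at least 2-fold higher in synaptosomes (Kcna1, Kcnab2, Kcnd2, Kcna5 and Kcnc2), 0 were at least 2-fold lower and 4 lay between. Among the 2735 genes past the filter, 19.1% were higher and 14.3% lower by that measure, and higher genes made up 57.2% of those past 2-fold (43.1% without centring). The median log2 ratio of the 9 genes was 1.01, against 0.00 over all 2735, and 8 of the 9 ratios were positive. Kcna5 and Kcnd3 were under the floor in total hippocampus and passed the filter through the synaptosome array alone, so their ratios could only be positive. Kcnb2 passed through the hippocampus array alone. The count depends on the centring and on the floor, and Kcnc2, Kcna5 and Kcnd2 lay close to the threshold at 2.01-fold, 2.02-fold and 2.15-fold. Without centring 2 of 9 were at least 2-fold higher, Kcna1 and Kcnab2, against 14.7% of all genes. With the floor at percentile 60 of the pooled values 3 of 9 were, Kcna1, Kcnab2 and Kcnd2, against 13.3% of all genes. With probe sets above the floor on both arrays only, the same genes were, 3 of 6, against 13% of all genes. A synaptosome preparation and a whole tissue also differ in which cells, and which parts of them, gave the RNA. A different mix of cell types or cell parts cannot be told apart here from a different level of an RNA within them.

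Promoter sequences are shown for Kcnab2 and Kcnd2 because these were the 2 genes with signals above the size of negative values on both arrays. The promoter table for GRCr8 held 7 of the 9 genes. Kcna1 and Kcnb2 had no promoter in it, though both are in RefSeq's gene order. Each stretch of 300 bases runs from 250 bases before the start of the gene to 50 bases after it, and capitals mark matches on either strand to TATAA of the TATA box, to CCAAT, itself the name of a box, or to GGGCGG of the GC box. The motifs were searched without regard to overlap with each other.
Kcnab2 promoter, GRCr8 chr5:168270711-168271010, minus strand: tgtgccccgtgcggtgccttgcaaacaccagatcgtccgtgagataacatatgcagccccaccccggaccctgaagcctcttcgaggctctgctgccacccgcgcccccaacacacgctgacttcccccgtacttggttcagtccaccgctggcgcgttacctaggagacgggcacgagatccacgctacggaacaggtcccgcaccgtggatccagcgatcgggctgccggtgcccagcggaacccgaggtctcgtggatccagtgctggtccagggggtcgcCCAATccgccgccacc
Kcnd2 promoter, GRCr8 chr4:50742235-50742534, plus strand: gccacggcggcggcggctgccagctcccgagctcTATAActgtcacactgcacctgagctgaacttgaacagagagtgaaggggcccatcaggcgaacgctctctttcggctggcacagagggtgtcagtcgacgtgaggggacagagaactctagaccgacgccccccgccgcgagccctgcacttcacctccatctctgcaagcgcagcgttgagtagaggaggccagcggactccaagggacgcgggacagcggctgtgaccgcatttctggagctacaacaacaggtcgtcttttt

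The Kcnab2 promoter held 1 match to CCAAT, which 37.5% of the 33469 promoters in the table hold, and the Kcnd2 promoter 1 match to TATAA, which 26.2% hold. The CCAAT match lies within the 50 bases after the start of Kcnab2, and the TATAA match early in the 250 bases before that of Kcnd2. Neither promoter held GGGCGG, which occurs in 33.1% of the promoters and occurred 3 times in that of Kcnc1 and 1 time in that of Kcnd3. The promoters of Kcnab2 and Kcnd2 had 28 and 23 CpG dinucleotides and a GC content of 66% and 61.7%, against a median of 51.7% over all promoters. Those of Kcna4 and Kcna5 held 1 and 6 CpG dinucleotides and none of the 3 motifs. The letters describe the genes, and no relation to the array signals was tested.

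Kcna1, which encodes Kv1.1, had the highest ratio of the 9. The brighter of its probe sets, X12589cds_s_at, gave a signal of 16896 in synaptosomes and 3889 in total hippocampus, giving a centred log2 ratio of 2.29 or 4.89-fold, and a plain quotient of 4.34. Its other probe set, M26161_at, gave 8853 in synaptosomes and a value below the floor, 785, in total hippocampus, at least 11.8-fold. Both probe sets therefore gave a higher synaptosome signal, and the log2 ratios, 2.29 and a bound of 3.56, differed by 1.27, which is 0.90 as an SD. Because both hippocampus readings lay within the size of negative values, the size of the ratio is poorly fixed. With a floor at that size, 5280.25, which was chosen after the values were seen, it was a bound of 1.77 for X12589cds_s_at and of 0.84 for M26161_at.

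Kcna4 encodes Kv1.4, a Kv1 α subunit that inactivates rapidly. With M32867_at it read 1690 in synaptosomes and 1319 in total hippocampus, giving a log2 ratio of 0.53. With X16002cds_s_at, which did not pass the filter, it read 1348 in synaptosomes and 511 in total hippocampus, a bound of 0.84. The ratio measured on both arrays was smaller than the SD between probe sets, and all 4 readings lay within the size of negative values. The bound moved with the floor, to 1.57 with the floor at 200.

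Kcna5 encodes Kv1.5, best known as a channel of heart and vascular muscle. Its single probe set, M27158cds_at, read 1521 in synaptosomes and -7771 in total hippocampus. The bound of 2.02-fold rests on a dim synaptosome reading, and the hippocampus reading is more negative than 5280.25. In RefSeq's gene order on assembly GRCr8, Kcna1 lies between Kcna5 and Kcna6. The remaining genes of the Kv1 list with a probe set, Kcna2, Kcna3, Kcna6, Kcnab1 and Kcnab3, were under the floor on both arrays. Their 7 probe sets read -2281 to 16 in synaptosomes and -1143 to 595 in total hippocampus, so these arrays could show neither their presence nor a difference. Kv1.2, the product of Kcna2, is a common partner of Kv1.1 in the brain.

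Kcnab2 encodes Kvβ2, an auxiliary subunit that binds the cytoplasmic side of Kv1 channels and promotes their delivery to axons. Its brighter probe set, rc_H33656_at, read 19393 in synaptosomes and 8859 in total hippocampus, 2.46-fold, and both readings stood above the size of negative values. The other, X76724_at, read 527 in synaptosomes and 2467 in total hippocampus, giving a log2 ratio of -1.37, at least 2.59-fold lower in synaptosomes. The probe sets thus pointed in opposite directions and differed by 2.67 on the log2 scale, an SD of 1.89. Both readings of the dimmer probe set lay within the size of negative values. The mean log2 ratio of the pair was -0.037, so the direction for Kcnab2 rests on its brighter probe set.

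Kcnb2 encodes Kv2.2, a delayed rectifier subunit. Its single probe set, M77482_at, read 119 in synaptosomes and 1402 in total hippocampus. It was the only member gene with a negative ratio, -0.56, a bound that the floor sets. It was -2.64 with the floor at 200 and 0.12 with the floor at percentile 60 of the pooled values.

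Kcnc1 and Kcnc2 encode Kv3.1 and Kv3.2, which repolarise fast-spiking interneurons. Kcnc1 had 1 probe set, X62840mRNA_s_at, which read 2821 in synaptosomes and 1998 in total hippocampus, giving a log2 ratio of 0.67. The brightest of the 4 Kcnc2 probe sets, X62839mRNA_s_at, read 2605 in synaptosomes and 1459 in total hippocampus, giving a log2 ratio of 1.01. Kcnc1 lay inside the SD between probe sets and Kcnc2 just outside it, and all these readings were within the size of negative values.

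The other 3 Kcnc2 probe sets were under the floor on both arrays and have no ratio. M59313_at read 582 in synaptosomes and 69 in total hippocampus. M59211_at read -27 in synaptosomes and 561 in total hippocampus, and M84203_s_at read -40 in synaptosomes and 360 in total hippocampus. Their signals were higher in synaptosomes for 1 of the 3 and lower for the others. Parvalbumin (Pvalb), a calcium-binding protein that marks many of the interneurons known for Kv3 channels, read 1926 in synaptosomes and 4424 in total hippocampus, 2.04-fold lower. Among the other inhibitory neuron markers past the filter, Npy and Sst were also lower, by 2.62-fold and 2.47-fold, while Gad2 was 2.27-fold higher and Gad1 1.62-fold higher. Their relation to the Kv3 signals was not tested. Kcnc4, which encodes Kv3.4, read 991 in synaptosomes and 292 in total hippocampus and did not pass the filter.

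Kcnd2 encodes Kv4.2, the main A-type channel subunit of pyramidal cell dendrites. Its brighter probe set, M59980_s_at, read 11435 in synaptosomes and 5979 in total hippocampus, 2.15-fold with centring and 1.91-fold as a plain quotient. The other, S64320_at, read 1889 in synaptosomes and -1542 in total hippocampus, at least 2.51-fold. Both probe sets gave a higher synaptosome signal and their log2 ratios, 1.11 and a bound of 1.33, differed by 0.22. The ratio of the brighter one was larger than the SD between probe sets by a small margin.

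Kcnd3 encodes Kv4.3, the other Kv4 subunit known from hippocampal interneurons and some principal cells. Its probe set rc_AI230211_s_at read 1423 in synaptosomes and -603 in total hippocampus, a bound of 0.92 on the log2 scale. U92897_s_at read 491 in synaptosomes and -779 in total hippocampus, and M74898cds_s_at read -1985 in synaptosomes and -3885 in total hippocampus. All 3 probe sets had the higher value in synaptosomes, but only 1 of these 6 readings was above the floor, and none was above the size of negative values. Dpp6, an auxiliary subunit of Kv4 channels, read 893 in synaptosomes and 1038 in total hippocampus and did not pass the filter.

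**Figure D2:**
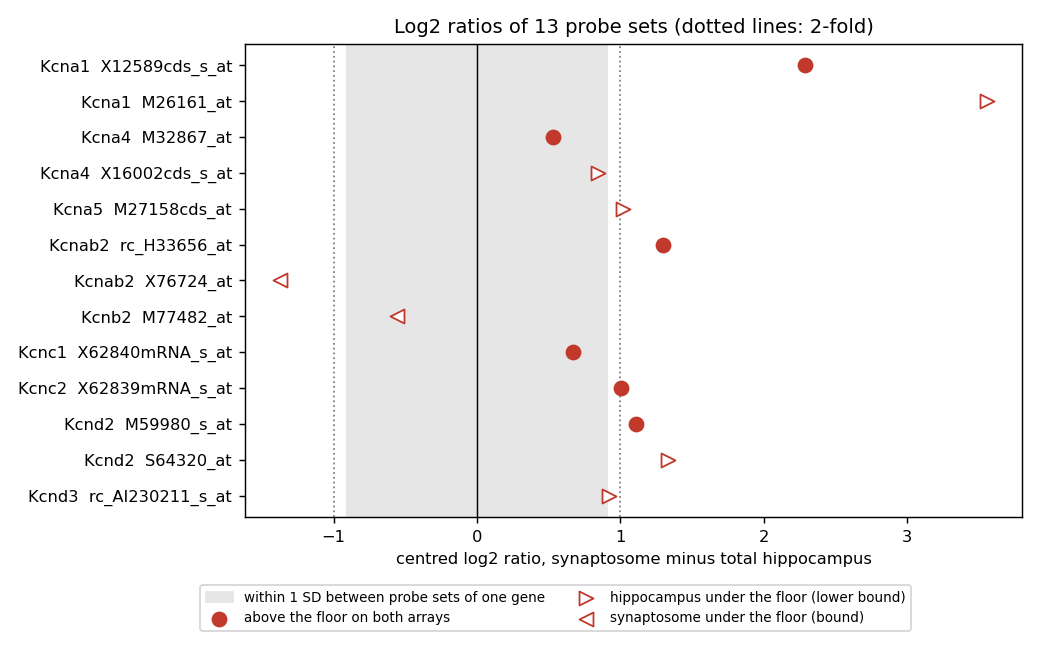
Centred log2 ratio, synaptosome minus total hippocampus, of the 13 probe sets above the floor on at least 1 array. Filled circles are probe sets above the floor on both arrays, open triangles are bounds with 1 array under the floor, dotted lines mark 2-fold and the grey band is 1 SD between probe sets of one gene (0.90). Kcna1 lies farthest to the right with both probe sets, at 2.29 and a bound of 3.56, and the probe sets of Kcnab2 lie on opposite sides of 0.

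Over these 13 probe sets, 7 were at least 2-fold higher in synaptosomes and 1 at least 2-fold lower. Among all 4307 probe sets with 1 gene symbol and a ratio, 16.1% were higher by that much and 12% lower. Of the 7, M26161_at of Kcna1, M27158cds_at of Kcna5 and S64320_at of Kcnd2 were under the floor in total hippocampus, so their ratios could only be positive. The 1 lower, X76724_at of Kcnab2, was under the floor in synaptosomes and could not have counted as higher. The 6 member probe sets above the floor on both arrays all had positive ratios, between 0.53 for Kcna4 and 2.29 for Kcna1. The ratios fall in the order Kcna1, Kcnab2, Kcnd2, Kcnc2, Kcnc1, Kcna4 among these. Apart from Kcna1, at 2.29, they lie between 0.53 and 1.30, and neighbours among those differed by less than the SD between probe sets. The step from Kcnab2, at 1.30, to Kcna1 was larger than that SD. It was smaller than 1.28, the SD of a difference between 2 probe sets.

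Kcna1 was compared with the Kv2, Kv3 and Kv4 genes probe set by probe set. Of their 11 probe sets, 6 had a ratio, from -0.56 for Kcnb2 to a bound of 1.33 for Kcnd2. The 2 Kcna1 probe sets thus gave 12 pairs, and Kcna1 had the higher ratio in 12 of them. The order of 3 of these pairs depends on the floor. Kcna1 was higher in 10 of 12 pairs with the floor at 200, since X12589cds_s_at, at 2.29, lay below S64320_at of Kcnd2, a bound of 3.41, and below the Kcnd3 probe set, a bound of 2.999. With the floor at 5280.25 only 2 pairs were left, and in 1 of them M26161_at, a bound of 0.84, lay below M59980_s_at of Kcnd2, at 1.03. For X12589cds_s_at the differences on the log2 scale were 2.85 against Kcnb2, 1.62 against Kcnc1, 1.28 against Kcnc2, 1.37 against Kcnd3, and 1.18 and 0.96 against the probe sets of Kcnd2. The SD of a difference between 2 probe sets, at 0.90 each, is 1.28. Of these 6 differences 4 were larger than it, that against Kcnc2 by the narrowest margin, and those against Kcnd2 were not.

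For M26161_at the differences ran from 2.23 against S64320_at of Kcnd2 to 4.12 against Kcnb2, and 6 of 6 were larger than 1.28. They start from a Kcna1 ratio that is itself a bound. The ratios of Kcnd3 and of S64320_at are lower bounds too, so a difference from X12589cds_s_at could be smaller than given, and one from M26161_at could be smaller or larger. The pair with the brightest signals, X12589cds_s_at and M59980_s_at of Kcnd2, differed by 1.18, which did not exceed the SD of a difference. With the floor at 5280.25 that difference was 0.74, with the Kcna1 ratio a bound. The higher ratio of Kcna1 than of Kcnd2 was therefore not beyond the error when the brighter probe set of each gene was used.

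By gene, the 5 Kv2, Kv3 and Kv4 genes had a median log2 ratio of 0.92, with 2 of 5 higher by at least 2-fold and 0 lower. Of all genes past the filter, 19.1% were higher and 14.3% lower by that measure. Kcna1 lay 1.37 above the median of 0.92, which is the ratio of Kcnd3, a lower bound that the floor sets. With probe sets above the floor on both arrays only, which leaves out Kcnb2 and Kcnd3, Kcna1 lay 1.28 above the median. The median of the 8 member genes other than Kcna1 was 0.96. Kcna1 ranked 60 from the top among 2735 genes, Kcnab2 338, Kcnd2 447, Kcna5 508, Kcnc2 519, Kcnd3 579, Kcnc1 763, Kcna4 866 and Kcnb2 1916.

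**Figure D3:**
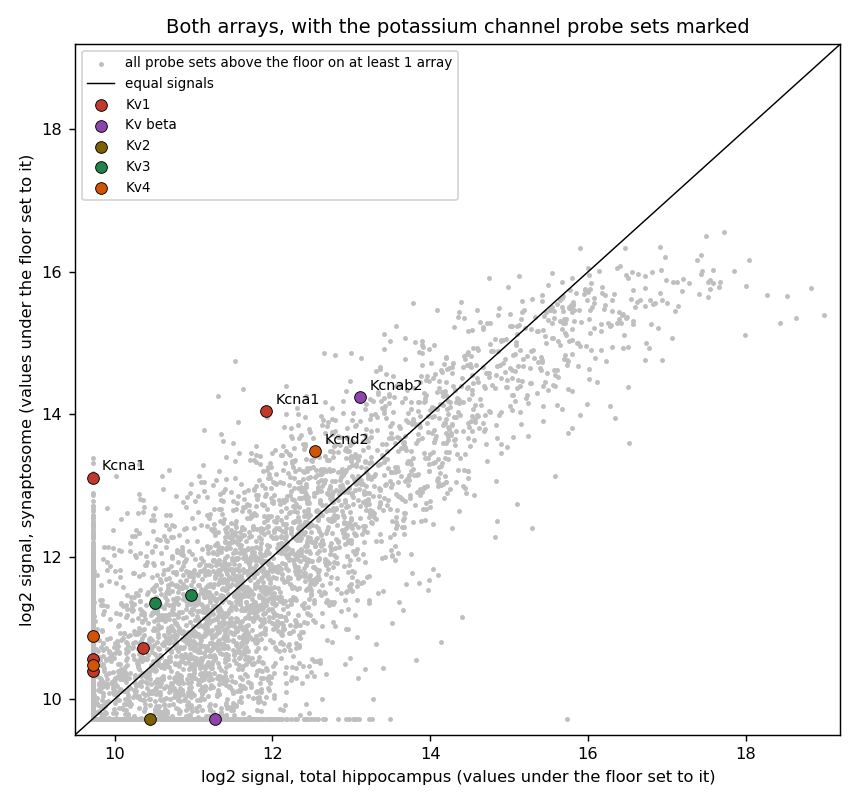
Log2 signal on the synaptosome array (vertical axis) against log2 signal on the total hippocampus array (horizontal axis) for every probe set above the floor of 846 on at least 1 array, in grey, with the 13 channel probe sets coloured by family and the line of equal signals. Kcna1, Kcnab2 and Kcnd2 have the brightest points above the line, and the other channel points lie near the floor on 1 or both axes.

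Other potassium channels on the array give the context for the 9 genes. Of the 48 further potassium channel genes and channel subunits in the lists used, 19 passed the filter. Of these, 8 were at least 2-fold higher in synaptosomes, 4 at least 2-fold lower and 7 between, with a median log2 ratio of 0.78. Among all 2735 genes past the filter, 19.1% were higher and 14.3% lower by that measure, with a median of 0.00. Among the 8 higher genes only Kcnmb1 and Kcnj1 were above the floor on both arrays. Kcng1, Kcne1, Kcnh1, Kcnma1, Kcnj11 and Kcnj15 were bounds, under the floor in total hippocampus, and passed the filter through the synaptosome array alone. Among the 4 lower genes Kcnj4 was a bound, under the floor in synaptosomes. Kcna1 ranked 2 among all 28 channel genes past the filter, after the bound of 5.17-fold for Kcng1, which encodes a silent subunit that joins Kv2 channels. Kcng1 read 3891 in synaptosomes and -251 in total hippocampus with its single probe set.

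Among Kv7, Kv10 to Kv12 and KCNE subunits, 2 of 8 genes were higher by at least 2-fold and 2 of 8 lower. The shares over all genes past the filter were 19.1% and 14.3%. Kcnh3, a Kv12 channel of the forebrain, read 9518 in synaptosomes and 6247 in total hippocampus, giving a log2 ratio of 0.78. Kcnq3, a subunit of the M-current channel, read 2110 in synaptosomes and 4775 in total hippocampus, 2.01-fold lower with AF091247_s_at, while its other probe set was under the floor on both arrays. Both calcium-activated channel genes past the filter, and 3 of 5 genes of the inward rectifier list, were higher by at least 2-fold, and 1 of those 5 was lower. These counts take 1 probe set a gene, and for Kcnmb1 and Kcnj1 another probe set past the filter pointed the other way, at -2.49 against 1.96 for Kcnmb1 and at -1.12 against 1.11 for Kcnj1. Kcnk1, a two-pore background channel, lay farthest the other way, with 1386 in synaptosomes and 10870 in total hippocampus, 6.97-fold lower.

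Scaffold and partner genes of Kv1 complexes were closer to 0. Of the 4 past the filter, 0 passed 2-fold in either direction, and their median log2 ratio was 0.04. Dlg4 encodes PSD-95, a scaffold that binds the C-terminal tail of Kv1 α subunits. It read 8562 in synaptosomes and 7118 in total hippocampus, giving a log2 ratio of 0.44. Ank3, the ankyrin of the axon initial segment, had log2 ratios of 0.69, 0.17 and 0.50 with the probe sets past the filter. Dlg2, which encodes PSD-93, had a log2 ratio of -0.42, and Lin7a, an adaptor that binds PDZ and L27 scaffolds, one of -0.36.

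**Figure D4:**
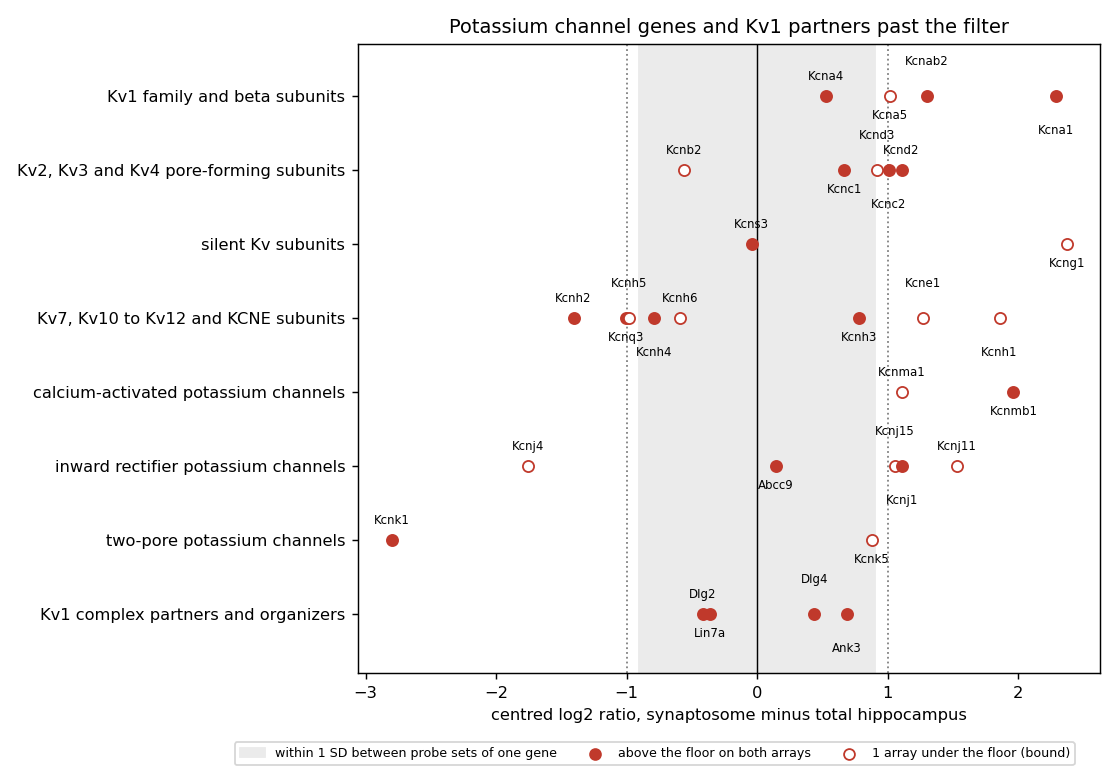
Centred log2 ratio, synaptosome minus total hippocampus, of each gene past the filter, by list of potassium channel families and Kv1 partners, with filled circles for genes above the floor on both arrays, open circles for bounds, dotted lines at 2-fold and a grey band of 1 SD between probe sets (0.90). Kcna1 at 2.29 and the bound of Kcng1 at 2.37 lie farthest right, Kcnk1 at -2.80 farthest left, and the 4 Kv1 partners lie inside the band.

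The genes whose pair of log2 signals lay nearest to that of Kcna1 among the 2169 non-member genes above the floor on both arrays were Ntrk2, Mycbp2, Zmym3, Ddr1 and Cdh22, at distances of 0.09 to 0.44 on the log2 scale. Ntrk2, which encodes the BDNF receptor TrkB, read 15928 in synaptosomes and 3922 in total hippocampus. Those nearest to Kcnab2 were Thra, Ptov1, Wipf3, Hmga1 and Atp9a, at 0.06 to 0.23. Thra, a thyroid hormone receptor gene, read 18631 in synaptosomes and 8897 in total hippocampus. With 2 arrays such a likeness says only that both signals were similar.

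The labelled tissue was checked with marker lists, over which positive signals were summed on each array. The astrocyte list summed to 373789 in synaptosomes and 401475 in total hippocampus, with 7 of 7 genes past the filter and a median log2 ratio of -0.17. The oligodendrocyte list summed to 39528 in synaptosomes and 90022 in total hippocampus, with 3 of 6 genes at least 2-fold lower and 1 at least 2-fold higher. The list of blood and vessel genes summed to 13743 in synaptosomes and 48355 in total hippocampus, of which Hbb gave 6811 in synaptosomes and 35126 in total hippocampus. Among its 4 genes past the filter, 3 were at least 2-fold lower and 0 higher. The microglia list summed to 20188 in synaptosomes and 10067 in total hippocampus. Of the microglia sum, 2 probe sets of Aif1 gave 7546 and 9709 in synaptosomes and 1267 and 5538 in total hippocampus. Of the 2 microglia genes past the filter, Aif1 and Ptprc, 0 passed 2-fold, with a median log2 ratio of 0.15. That count took the brighter of these Aif1 probe sets, at 1.97-fold higher, while the dimmer one was 6.70-fold higher. The Ptprc ratio was a bound, under the floor in synaptosomes. Signals of glial markers were thus present on the synaptosome array. The excitatory neuron list summed to 38470 in synaptosomes and 57055 in total hippocampus, and the inhibitory neuron list to 20814 in synaptosomes and 36898 in total hippocampus. Of the excitatory sum, the probe sets of Nrgn gave 15888 and 13062 in synaptosomes and 20166 and 29598 in total hippocampus. Among 4 excitatory genes past the filter, 1 was at least 2-fold lower and 0 higher, with a median log2 ratio of 0.20. Among 5 inhibitory genes past it, 3 were at least 2-fold lower and 1 higher, with a median of -1.03. Markers under the floor on both arrays were Csf1r, Itgam, Vwf, Slc17a7, Slc32a1 and Vip. The part of these differences in the channel ratios was not tested.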

How the data were processed

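RNA of 1 synaptosome sample and 1 total hippocampus sample was measured on 1 array each. Linear intensity is the unit of the deposited value table, which lists 8799 probe sets including 59 controls, with scanner software, background correction and scaling not given in the sources used here. Trimming the lowest and highest 2% left means of 2503.6 in synaptosomes and 2505.0 in the hippocampus, so no rescaling was applied. Of non-control values, 25.2% in synaptosomes and 31.4% in the hippocampus were at or below 0.

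Deposited intensity values were floored at percentile 50 of the pooled values, put on the log2 scale, filtered at the median mean level (10.07, passed by 4370 probe sets) and centred. Symbols came from the platform annotation, where 7006 non-control probe sets had 1 symbol, 308 several and 1426 are unnamed here; 6985 were found in RefSeq's GRCr8 table, which changed 0 symbols. A gene takes its probe set of highest mean level. Genes named are all members, list genes above the floor on either array, of which a selection is printed, and the 5 genes nearest to Kcna1 and to Kcnab2. Of the 18 member probe sets 9 carry the suffix _s_at, which on arrays of this kind marks probes that related sequences may share, so cross-hybridisation within the family cannot be told apart.

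Members and lists were chosen with earlier results of these data known. The alternatives were other floors, no centring, quantile normalization, loess correction, other filters and other rules for the probe set of a gene. Python 3.11.15, NumPy 2.4.6, pandas 2.3.3, statsmodels 0.14.6 and matplotlib 3.10.9 were used. The steps were tested on simulated data. Without added noise, 0% of 2541 genes given no change passed 2-fold. Noise as large as the disagreement among a gene's probe sets was then added. Of 2549 genes given no change, 25.5% now passed 2-fold. Genes given a log2 ratio of 1.5 or -1.5 passed in 72.9% and 73.5% of cases. Passing 2-fold on its own therefore does not show that a gene differed.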

Additional observations from a re-analysis of the deposited data

How the results depend on the processing

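Over 11 alternatives, 1 of them (a floor at 5280.25) chosen after seeing the data, Kcna1 was at least 2-fold higher in synaptosomes in 11, with log2 ratios from 1.77 to 3.56. Both ends of this range are bounds with total hippocampus under the floor, where the ratio could only be positive. The value of 3.56, and the difference of 3.17 from the median of the Kv2, Kv3 and Kv4 genes, came without suffixed probe sets. That setting leaves only M26161_at for Kcna1. Of the Kv2, Kv3 and Kv4 genes it leaves only Kcnb2 and Kcnd2, both as bounds. Kcnab2 was at least 2-fold higher in 10 of 11 and had a log2 ratio of -0.037 with the mean over probe sets, because its probe sets oppose each other. Kcnd2 was at least 2-fold higher in 8 of 11, Kcna5 in 3 of the 7 and Kcnc2 in 2 of the 8 that gave them a value. Of the member genes left under an alternative, those at least 2-fold higher were 2 of 9 without centring, 2 of 8 with quantile normalization, and 3 of 9 with the floor at percentile 60, with loess correction and without the filter. They were 3 of 6 with probe sets above the floor on both arrays only, 3 of 4 with the floor at percentile 75 and 3 of 3 with the floor at 5280.25. They were 4 of 9 with the mean over probe sets, 4 of 6 with the floor at 200 and 4 of 6 without suffixed probe sets. The share of all genes higher was 13.3% with the floor at percentile 60, 10.1% at percentile 75, 8.27% at 5280.25 and 13% with probe sets above the floor on both arrays. It was 14.7% without centring, 17.2% with quantile normalization, 18% with loess correction and 15.3% without the filter. It was 17.8% with the mean over probe sets, 16.9% with the floor at 200 and 19.4% without suffixed probe sets. No member gene with a value was at least 2-fold lower under these alternatives, but Kcnb2 had a value in 6 of 11. With the floor at 200 it did not pass the filter, and its probe set had a log2 ratio of -2.64. Over all genes, 173 were at least 2-fold higher and 136 lower with the floor at percentile 75, 291 and 254 with probe sets above the floor on both arrays, and 82 and 79 with the floor at 5280.25, where fewer genes were left. Of all genes past 2-fold, 43.1% were higher without centring and 57.2% as reported. The log2 ratio with the floor at percentile 60 was 0.12 for Kcnb2, 0.25 for Kcna5 and 0.15 for Kcnd3. With the floor at 200 the bounds were 3.09 for Kcna5 and 2.999 for Kcnd3, whose probe sets then did not pass the filter. No paired analysis was possible because each group has 1 array. Signal over background limits every member gene but Kcnab2 and Kcnd2, and the dimmer probe set of each of these.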
